A study of Mus musculus with 24 samples.

Results

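Control splenic B cells stimulated with anti-IgM for 8 h were compared with the same kind of cells at 0 h, with 3 arrays in each group and 14335 genes tested. The 6 arrays are those whose titles read WT 8h and WT 0h, out of 24 in the series, and no measured value entered their choice. Anti-IgM binds the IgM of the B cell receptor and draws receptors together. Relative to the whole RNA pool, RNA for ribosome construction, cholesterol synthesis, mitochondria and proteasomes was higher at 8 h than at 0 h. RNA for B cell receptor signalling, inhibitory coreceptors, antigen presentation and quiescence was lower on the same relative scale.

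The control mice were of the C57BL/6 strain and 6-8 weeks old, and carried no stated deletion. The labels do not say whether the controls carried a Cre transgene. The second genotype of the series, NFATc1-/-, had exon 3 of Nfatc1 flanked by loxP sites and deleted by Cre expressed in the B lineage from Cd79a (mb-1). Spleen cells were exposed to anti-IgM and then enriched for B cells with beads, and each group has 3 biological replicates. The WT 0h group was unstimulated. No culture of 8 h without anti-IgM was analysed here, so time in culture and receptor stimulation cannot be told apart.

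A resting B cell is a small cell that makes little RNA and protein and circulates between blood and lymphoid organs. Crosslinking of its receptor opens calcium channels and starts kinase cascades that act through the NFAT, AP-1 and NF-kB transcription factors. The cell then grows for many hours before it copies its DNA, and it needs a second signal, usually from a T cell, to survive and divide for long.

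All values are log2 of the MAS5 signal. The filter level, the 40th percentile of an array, lay between 5.61 and 5.98 on the 6 arrays. Where the mean of the dimmer group lay under their mean level of 5.73, the fold is given as "at least", with signals under the level raised to it. Adjusted p values always refer to the measured signals, before any raising. Differences are 8 h minus 0 h with limma's standard error (SE). A gene was called at an adjusted p under 0.05.

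Markers of B cells were the brightest of the marker lists, with summed signals of 139724 to 155731 at 0 h and 62095 to 69165 at 8 h. Those of T cells were low, at 346 to 514 and 340 to 455, with Cd4 under the filter level on all 6 arrays. Macrophage and monocyte markers summed to 4548 to 11368 at 0 h and 1788 to 4760 at 8 h, with C1qa, C1qc and Cd163 under that level on all 6 arrays. Neutrophil markers summed to 2820 to 4160 at 0 h and 955 to 1808 at 8 h, NK cell markers to 810 to 1590 and 286 to 525, and erythroid markers to 901 to 1144 and 245 to 267. Of 7 tested macrophage and monocyte markers 2 were called lower and none higher, with a median of 0.01 (-0.20 with dim signals raised to the filter level). Of those 7, 1 was called higher with median scaling, quantile normalization, a fixed replicate block or the male-type arrays left out. Stromal and endothelial markers summed to 1803 to 2824 at 0 h and 417 to 647 at 8 h. Called lower were 1 of 7 neutrophil, 3 of 7 NK cell, 1 of 4 erythroid and 1 of 4 stromal and endothelial genes, and none higher. Among all genes 15.7% were lower and 17.7% higher. Without the male-type arrays 0, 1, 1 and 1 of these markers were lower. With median scaling or quantile normalization no neutrophil marker was called. Of 6 dendritic cell markers 1 was higher and none lower, and no T cell or platelet marker was called. Replicate 2 of WT is a male-type library at every time, with a Y-linked Eif2s3y signal of 10.96 to 11.50 and an Xist signal of 6.17 to 6.62, while replicates 1 and 3 are female-type. Each WT group therefore holds 1 male-type array. With these 4 arrays left out, 1964 genes were called higher and 1606 lower at 8 h. For gene lists, counts without these arrays or with arrays scaled to their medians are given where they move by over 1.5 times.

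Of the 14335 genes, 2538 (17.7%) were called higher and 2246 (15.7%) lower at 8 h, which together is 33.4%. At least 2-fold differences were called for 1073 higher and 1135 lower genes, and at least 8-fold differences for 53 and 100. The 3 arrays at 8 h all lay above the 3 at 0 h for 22% of genes and all below for 22.7%. Arrays measure relative abundance in a pool, so fewer cells of a kind and less RNA per cell cannot be told apart. The median difference of all genes was -0.04, and it was 0.12 when arrays were scaled to their medians. Under that scaling 63.9% of the calls were in the higher direction, against 53.1% with the deposited scaling.

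**Figure D1:**
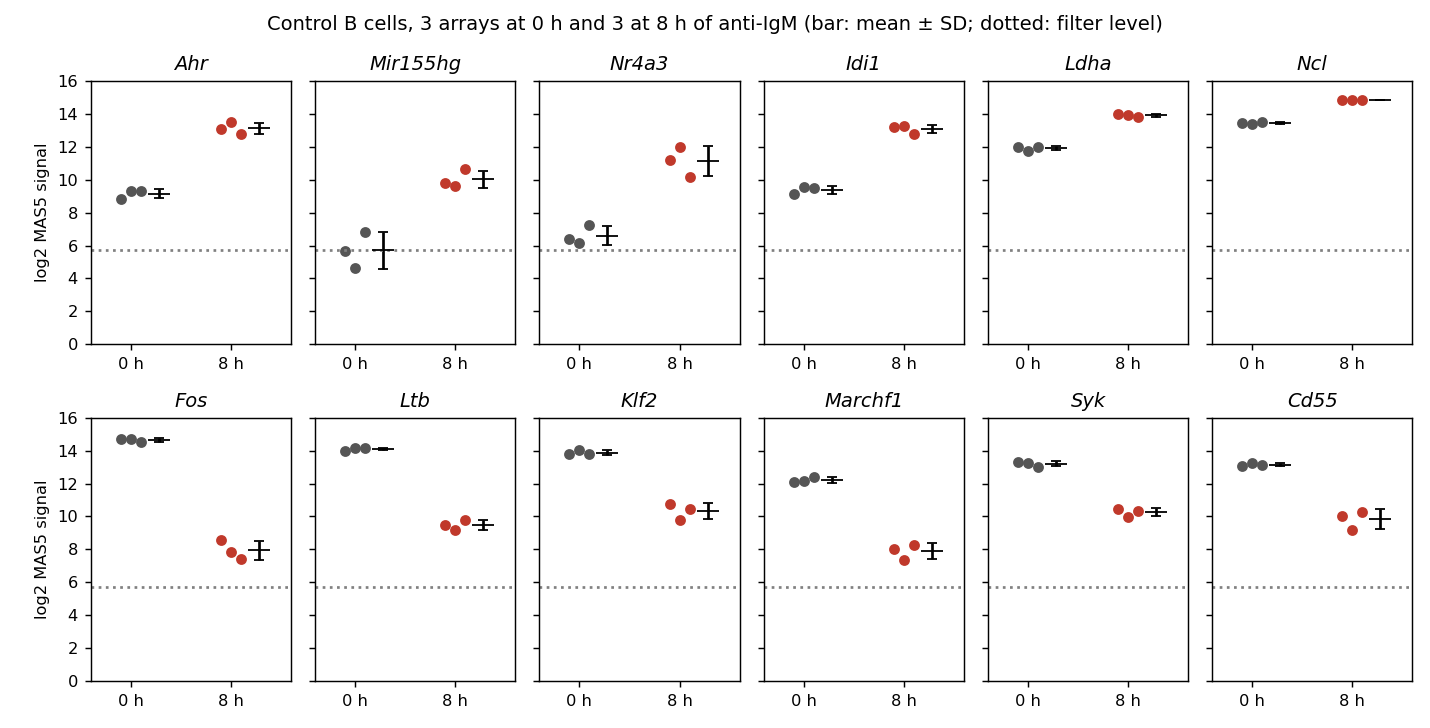
log2 MAS5 signal of 12 genes on the 3 WT 0h arrays (grey) and the 3 WT 8h arrays (red), with the mean and SD beside the points and the filter level of 5.73 as a dotted line. In each of the 12 genes the 0 h and 8 h arrays do not overlap, and Fos shows the widest gap, from 14.65 to 7.94 on average.

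Cholesterol synthesis had the highest list median of the 43 gene lists examined. The pathway builds sterols from acetyl-CoA through mevalonate, isoprenoids and squalene, and cells switch it on through the transcription factor SREBP2 when membranes need sterol. Of 25 tested members of the list of cholesterol and fatty acid genes, 21 were higher and 1 was lower at 8 h, with a median difference of 1.70 against -0.04 for all genes. Idi1, which isomerises isopentenyl diphosphate, stood at 9.12, 9.55 and 9.50 at 0 h and at 13.21, 13.27 and 12.81 at 8 h. The arrays were far apart, and the difference was 3.71 ± 0.22 (adjusted p = 1.22e-11), a 13.0-fold rise.

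The enzymes on both sides of squalene moved with it. Fdps, which makes farnesyl diphosphate, went from 8.79, 8.81 and 9.25 to 12.35, 12.11 and 12.26, a 9.76-fold rise (adjusted p = 1.17e-09). Sqle, squalene epoxidase, went from 9.05, 9.14 and 8.86 to 12.22, 12.32 and 12.03, a 9.01-fold rise (adjusted p = 5.6e-12). Neither gene had overlapping arrays, and both groups were tight. Cyp51, which demethylates lanosterol, rose 9.32-fold, Msmo1, a sterol oxidase, 8.33-fold, and Hmgcs1, which makes the precursor of mevalonate, 7.54-fold. Fdft1, the squalene synthase, rose 5.44-fold and Lss, which closes the ring to lanosterol, 3.72-fold.

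The regulators of the pathway differed among themselves. Srebf2, which encodes SREBP2, rose by 1.23 ± 0.16 (adjusted p = 1.93e-06), and Insig1, the sterol-sensing brake that is itself an SREBP target, rose by 2.21 ± 0.24 (adjusted p = 1.25e-07). Srebf1, the relative that drives fatty acid synthesis, differed by 0.16 ± 0.28 (adjusted p = 0.727). Of the fatty acid enzymes, Fasn, the fatty acid synthase, rose 4.44-fold and Acly, which supplies cytosolic acetyl-CoA, 2.20-fold. Scd1, the desaturase of fatty acids, was the 1 member that fell, from 13.97, 13.88 and 13.97 to 13.06, 13.03 and 13.02 (adjusted p = 2.77e-05).

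The promoters of 3 of these enzymes are printed because the list had 1 short motif in common. CCAAT, the letters of the box bound by the factor NF-Y, was searched for on both strands, from 250 bases before to 50 bases after each gene's start in RefSeq sequence of build GRCm38.p6. It occurred in 18 of the 19 list members with a promoter entry, Acaca being the exception, against 42.2% of the 11540 tested genes with an entry, 41.4% of called higher genes and 44.3% of called lower genes. The match describes these letters only. Capitals mark CCAAT or its reverse complement ATTGG, and each line reads 5′ to 3′ along the gene's own strand.
Idi1, chr13:8885356-8885655, plus strand: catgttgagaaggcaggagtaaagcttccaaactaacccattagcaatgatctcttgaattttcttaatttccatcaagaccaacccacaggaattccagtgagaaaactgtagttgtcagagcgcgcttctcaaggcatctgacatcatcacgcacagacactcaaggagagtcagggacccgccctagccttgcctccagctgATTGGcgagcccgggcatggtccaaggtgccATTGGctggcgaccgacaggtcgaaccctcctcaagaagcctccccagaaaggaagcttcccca
Cyp51, chr5:4104648-4104947, minus strand: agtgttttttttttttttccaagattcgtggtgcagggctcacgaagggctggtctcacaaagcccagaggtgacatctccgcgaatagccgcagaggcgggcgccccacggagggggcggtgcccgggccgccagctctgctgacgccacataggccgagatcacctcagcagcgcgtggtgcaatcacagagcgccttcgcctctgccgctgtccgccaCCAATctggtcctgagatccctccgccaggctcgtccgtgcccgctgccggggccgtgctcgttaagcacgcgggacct
Hmgcs1, chr13:119690101-119690400, plus strand: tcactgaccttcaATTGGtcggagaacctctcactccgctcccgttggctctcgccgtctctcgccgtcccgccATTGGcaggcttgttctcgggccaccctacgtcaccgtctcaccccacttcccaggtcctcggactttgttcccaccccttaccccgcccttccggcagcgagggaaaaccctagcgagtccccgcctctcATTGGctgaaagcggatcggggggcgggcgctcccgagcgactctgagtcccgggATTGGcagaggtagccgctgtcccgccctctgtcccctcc
Hmgcs1 held 4 matches, Idi1 2 and Cyp51 1.

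The sterol genes were also higher at 8 h than at the neighbouring times. Of the 25 list members, 13 were called higher at 8 h than at 3 h (10.3% of all genes) and 1 lower (5.57%), and 13 were higher than at 16 h (3.91%) and none lower (3.83%). Across all genes, 17 (0.119%) were higher at 8 h than at each of 0, 3 and 16 h, and 9 of them are on this list (Idi1, Fdps, Sqle, Fdft1, Hsd17b7, Lss, Dhcr7, Nsdhl and Acly). Lss, for example, had a mean of 8.15 before stimulation, 8.71 after 3 h, 10.05 after 8 h and 9.29 after 16 h. Nsdhl, a sterol dehydrogenase, read 9.62, 9.73 and 9.77 before stimulation and 9.54, 9.48 and 9.22 after 3 h. Its arrays reached 10.79, 10.40 and 10.42 after 8 h and stood at 9.84, 9.80 and 9.78 after 16 h, so the 8 h arrays were above all others.

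The other genes highest at 8 h were Cd28, the T cell costimulatory receptor, Dtx4, Suclg2, Sdc3, Lpin1, Cdk5rap3, Tns3 and Srd5a3. Cd28 rose from 6.20, 5.92 and 7.20 to 8.95, 8.40 and 8.16 and averaged 6.47 at 16 h. These counts of genes that stand out from all 3 other times were small and unstable. With arrays scaled to their medians 4 of the 17 were still called (Dhcr7, Dtx4, Lpin1 and Nsdhl), 5 were called without WT 8h replicate 1 and 28 without WT 8h replicate 2, 11 without WT 16h replicate 2, and 2 of the 17 among 8 calls without the male-type arrays. Of the sterol list, median scaling left 6 members called higher than at 3 h and 7 higher than at 16 h, and leaving out the male-type arrays left 7 and 6.

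**Figure D2:**
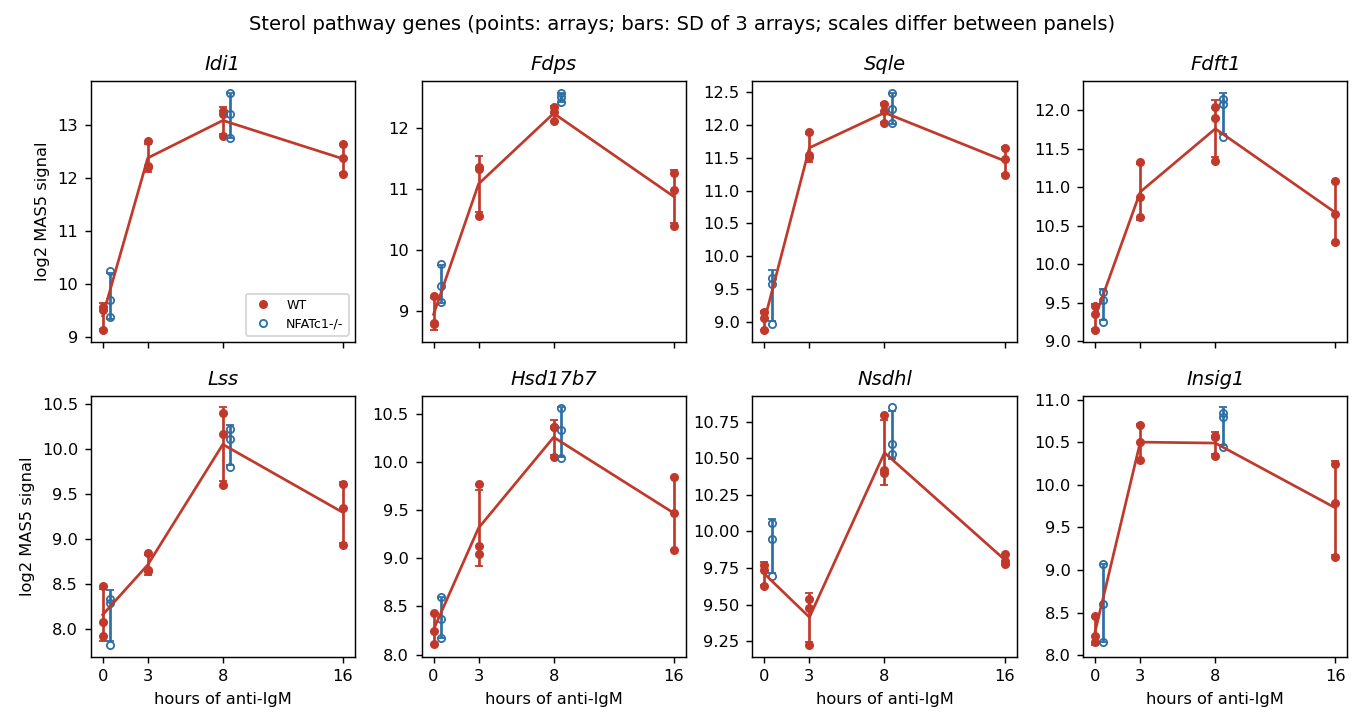
log2 MAS5 signal of 8 sterol pathway genes against hours of anti-IgM for WT (filled, joined through the means) and NFATc1-/- at 0 and 8 h (open, drawn slightly to the right), with points for arrays and bars for the SD of 3 arrays. The WT means of Idi1 over the times 0, 3, 8 and 16 h are 9.39, 12.38, 13.10 and 12.37, while Insig1 is as high at 3 h as at 8 h.

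The aryl hydrocarbon receptor, encoded by Ahr, is a ligand-activated transcription factor that senses plant, microbial and tryptophan-derived compounds and binds DNA at sites with the core GCGTG. Ahrr and Nqo1 are among the 15 highest genes by measured difference, a rank taken before dim signals were raised to the filter level. Ahr, Cyp1a1 and Tiparp were added after their values were seen, and no list of receptor targets was counted. Ahr stood at 8.82, 9.30 and 9.33 at 0 h and at 13.09, 13.49 and 12.77 at 8 h, a 15.6-fold rise (adjusted p = 3.44e-12).

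Cyp1a1, the detoxifying enzyme used as a readout of the receptor, was at 5.61, 5.66 and 5.55 at 0 h and at 10.24, 9.97 and 7.48 at 8 h, at least 10.7-fold higher (adjusted p = 0.00058). Replicate 3 was lower than the others at 8 h but above every 0 h array. Nqo1, a quinone reductase, was at least 7.96-fold higher (adjusted p = 7.11e-08), and Tiparp, a feedback inhibitor of the receptor, rose 4.60-fold from a mean of 11.16 (adjusted p = 4.6e-05). Ahrr, the receptor's repressor, was at 2.00, 0.77 and 0.00 at 0 h and at 7.26, 6.33 and 6.09 at 8 h, which is at least 1.69-fold because all 0 h values were far under the filter level (adjusted p = 0.000121).

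Over the times 3, 8 and 16 h the mean of Ahr was 12.94, 13.12 and 12.42. That of Cyp1a1 was 6.44, 9.23 and 10.76, and it was called higher at 8 h than at 3 h (adjusted p = 0.0154), while 8 h and 16 h did not pass the test (adjusted p = 0.277). The promoter of Ahrr is shown for its 3 copies of the core motif, marked in capitals, on chr13:74292282-74292581, minus strand, of GRCm38.p6. GCGTG on either strand occurs in 51.9% of promoters of tested genes.
Ahrr: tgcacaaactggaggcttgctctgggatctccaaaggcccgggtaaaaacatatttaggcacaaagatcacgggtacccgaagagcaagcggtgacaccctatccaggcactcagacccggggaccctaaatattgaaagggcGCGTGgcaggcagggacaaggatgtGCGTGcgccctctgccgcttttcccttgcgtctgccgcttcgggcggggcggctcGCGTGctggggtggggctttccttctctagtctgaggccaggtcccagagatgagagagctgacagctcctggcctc

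The precursor of miR-155, a microRNA of activated lymphocytes, was among the 15 highest genes. Its host transcript Mir155hg went from 5.66, 4.62 and 6.81 to 9.82, 9.65 and 10.62, at least 14.5-fold higher (adjusted p = 8.04e-06). The array measures the host transcript and not the mature miRNAs. Both mature arms are printed from RefSeq (GRCm38.p6) with the seed, bases 2 to 8, in capitals, because the seed sets which messages each arm can pair with. The 2 seeds differ.
mmu-miR-155-5p, chr16:84714143-84714165, plus strand: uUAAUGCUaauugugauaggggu
mmu-miR-155-3p, chr16:84714182-84714202, plus strand: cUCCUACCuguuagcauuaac

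Among the other highest genes, the most certain rise was that of Mreg, melanoregulin, from 8.62, 8.38 and 8.59 to 12.69, 13.08 and 12.49, an 18.7-fold difference (adjusted p = 2.75e-12). Tacc2, a centrosomal protein, was at 1.85, 3.81 and 1.58 at 0 h and at 9.16, 9.46 and 9.18 at 8 h, higher by at least 3.46 log2 units (adjusted p = 7.06e-11). Bcat1, which starts the breakdown of branched-chain amino acids, was at least 13.8-fold higher (adjusted p = 1.24e-10). In all 3 genes the groups were fully separate. Acod1, which makes itaconate, was at least 3.43-fold higher (adjusted p = 4.96e-06), and Dusp14, a MAP kinase phosphatase, at least 3.41-fold (adjusted p = 2.3e-05). Gng4, a G protein subunit, and Ccr9, a chemokine receptor of gut homing, were at least 13.1-fold and 11.4-fold higher. Both were already lower again at 16 h, where their means were 6.21 and 6.21 against 9.51 and 9.51 at 8 h (adjusted p = 0.000469 and 5.92e-05). The remaining genes of this rank were Nr4a3, described with the immediate early genes, Tspan4, Prss23, Zbed5 and A430093F15Rik.

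Genes that build the protein synthesis machinery rose almost as a block. Ribosomes are assembled in the nucleolus from ribosomal RNA, ribosomal proteins and many temporary assembly factors. Of 53 tested ribosome biogenesis genes, 52 were called higher, with a median difference of 1.62. Imp3 was the exception, at 0.41 ± 0.19 (adjusted p = 0.114). Polr1b, a subunit of the polymerase that makes ribosomal RNA, went from 8.57, 8.19 and 8.76 to 10.84, 11.15 and 11.09, a 5.73-fold rise (adjusted p = 5.4e-11). Ncl, nucleolin, was already bright at 13.46, 13.38 and 13.53 and reached 14.86, 14.83 and 14.82, and Fbl, fibrillarin, rose 3.39-fold. The medians of this list against 0 h, from comparisons that share the 0 h arrays, were 1.85, 1.62 and 1.65 for the times 3, 8 and 16 h.

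CACGTG, the E-box bound by MYC and its relatives, occurred in 11 of the 47 members with a promoter entry, against 11% of tested genes and 16.8% of called higher genes. Pno1, an assembly factor of the small ribosomal subunit, rose from 10.37, 10.37 and 10.63 to 12.69, 12.82 and 12.51. It is shown as the member of largest difference among those with the motif whose promoter may be printed. Its promoter lies on chr11:17211540-17211839, minus strand (GRCm38.p6), with the motif in capitals.
Pno1: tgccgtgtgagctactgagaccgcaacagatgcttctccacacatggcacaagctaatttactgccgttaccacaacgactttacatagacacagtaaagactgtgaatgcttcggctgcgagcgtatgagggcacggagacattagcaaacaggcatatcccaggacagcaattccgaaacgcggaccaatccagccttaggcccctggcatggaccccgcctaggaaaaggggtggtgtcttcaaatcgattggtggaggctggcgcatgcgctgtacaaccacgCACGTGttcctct
Myc itself was at 11.60, 11.58 and 11.90 at 0 h and at 12.23, 12.64 and 12.46 at 8 h. The arrays did not overlap, but the difference of 0.75 ± 0.30 missed the threshold (adjusted p = 0.0559), and Myc was higher at 3 h, with a mean of 13.46 (adjusted p = 0.0224 for 8 h against 3 h). Mxd4, an antagonist that competes for the partner MAX, fell 4.83-fold (adjusted p = 1.4e-07).

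Translation and folding genes moved in the same direction. Of 22 aminoacyl-tRNA synthetases, which load amino acids on tRNAs, 20 were higher and 1 lower (0 lower with median scaling or without the male-type arrays), for example Iars from 11.16, 11.01 and 10.94 to 12.57, 12.70 and 12.38. Of 32 initiation factors 23 were higher and none lower, among them Eif2b3 (4.09-fold), Eif4a1 (2.54-fold) and Eif4e (2.37-fold), the cap-binding protein. All 8 subunits of the TRiC chaperonin, which folds actin and tubulin, were higher, with Cct6a rising 2.56-fold. Among 24 nuclear import and export genes 22 were higher, among them Rcc1, which charges the transport GTPase Ran, from 8.22, 7.71 and 7.60 to 9.67, 10.01 and 9.85.

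The proteins of the cytosolic ribosome itself were mostly not called. Of 43 tested members 3 were higher and 1 was lower, shares of 6.98% and 2.33% against 17.7% and 15.7% for all genes. The list median was -0.04 with the deposited scaling and turned to 0.11 with arrays scaled to their medians. Many of these transcripts were near the top of the scale: Fau went from 14.67, 14.50 and 14.97 to 14.37, 14.26 and 14.44 (adjusted p = 0.0402), a call lost under median scaling, quantile normalization and without the male-type arrays, among other settings. Quantile normalization called 6 members higher. Rps25 rose by 0.83 ± 0.11 (adjusted p = 2.01e-06).

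**Figure D3:**
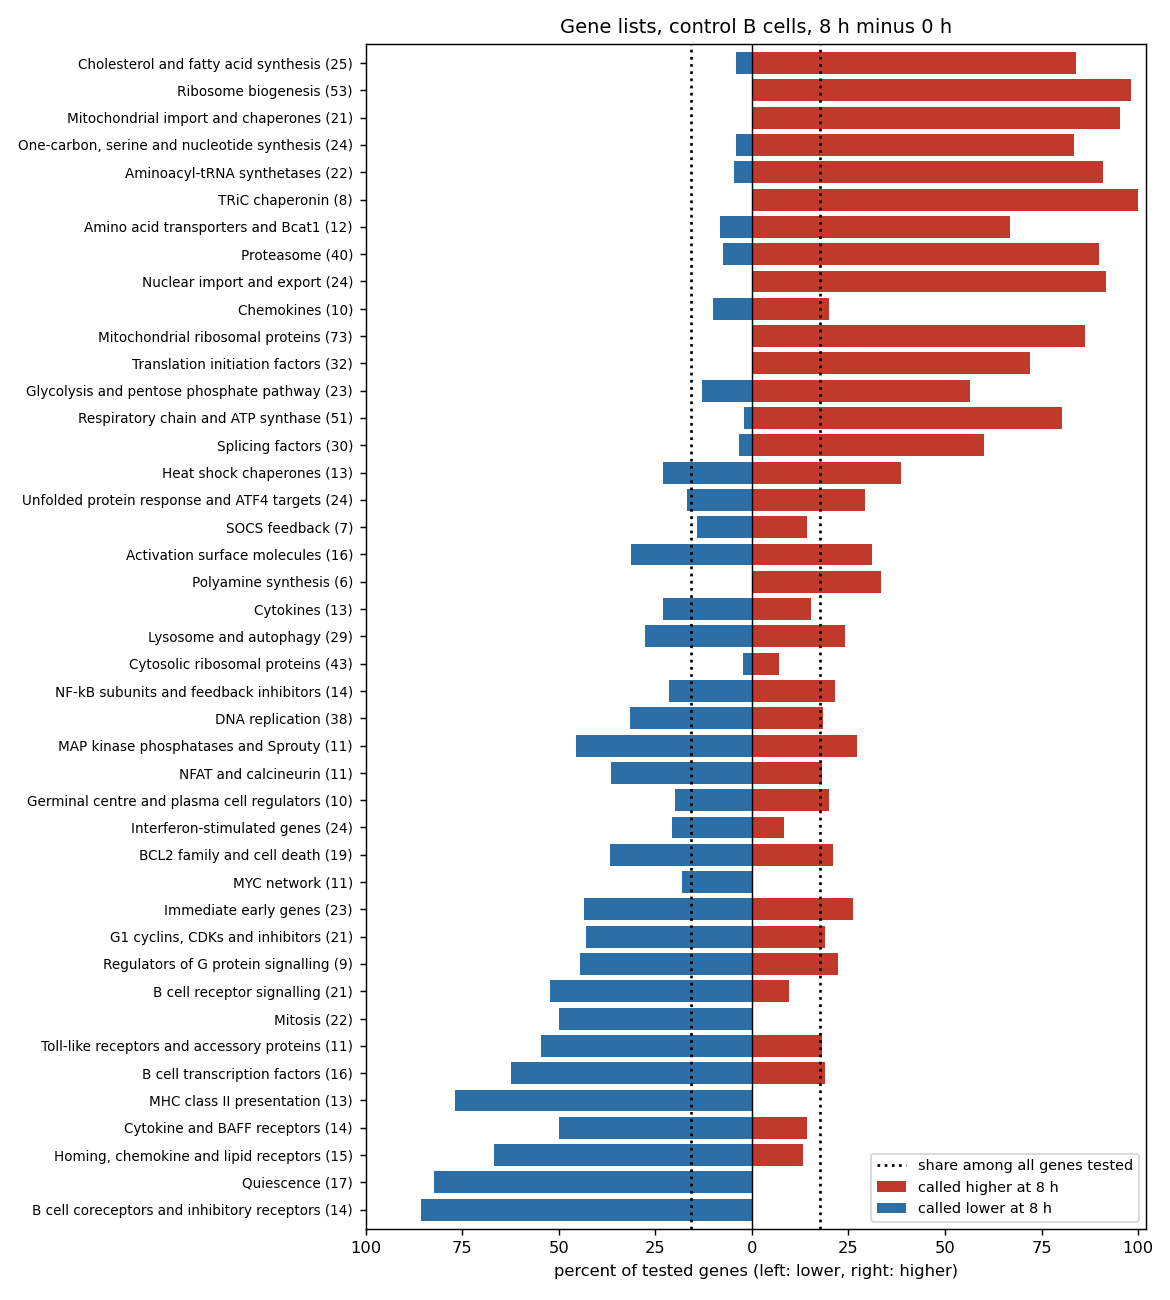
Share of tested genes called higher (red, right) and lower (blue, left) at 8 h against 0 h in WT for 43 gene lists, ordered by list median, with the number tested in parentheses and the shares among all genes (17.7% and 15.7%) as dotted lines. Ribosome biogenesis reaches 98.1% higher, and B cell coreceptors reach 85.7% lower.

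Mitochondrial genes rose in several layers. The mitochondrial ribosome had 63 of 73 members higher and none lower, led by Mrpl12 (3.53-fold) and Mrps18b (3.45-fold). Among 21 import and chaperone genes 20 were higher. Tomm40, the channel of the outer membrane, went from 9.18, 9.43 and 9.21 to 11.17, 11.67 and 11.41, and Hspd1, the matrix chaperonin, from 12.64, 12.77 and 12.46 to 14.17, 14.16 and 14.09. In the respiratory chain and ATP synthase 41 of 51 genes were higher, with a smaller median difference of 0.60. Ndufb6 of complex I rose 2.76-fold and Uqcrq of complex III 3.05-fold. Cox7c of complex IV was the 1 that fell, by 1.16 ± 0.16 (adjusted p = 3.54e-06).

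The respiratory genes at 8 h lay between 3 h and 16 h. Their medians against 0 h were 0.18, 0.60 and 0.95 for the times 3, 8 and 16 h, with 31 of 51 called higher at 8 h than at 3 h and 18 lower than at 16 h. Scaled to array medians, 2 and 0 were called, and without the male-type arrays 13 and 0. Proteasome genes showed the same order of medians, 0.58, 0.96 and 1.28. Of 40 proteasome genes 36 were higher at 8 h than at 0 h, such as Psmd1 (3.19-fold) and Psme3 (2.97-fold). The 3 that fell, Psmb8, Psmb9 and Psmb10, are the catalytic subunits of the immunoproteasome, which interferons induce. They fell by 0.59 ± 0.17, 0.98 ± 0.24 and 1.00 ± 0.19 (adjusted p = 0.00665, 0.00252 and 0.000183). With median scaling, and also without the male-type arrays, Psmb10 was the 1 proteasome gene still called lower.

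Metabolic genes rose in a selective way. Among 24 genes of one-carbon, serine and nucleotide synthesis 20 were higher. Nme1, a nucleoside diphosphate kinase, went from 11.11, 11.21 and 10.88 to 14.14, 13.89 and 13.84, a 7.43-fold rise (adjusted p = 8.12e-11). Shmt2 and Mthfd2, neighbours in the mitochondrial folate cycle, rose 4.59-fold and 4.39-fold, and Phgdh, which opens serine synthesis, 2.91-fold. Rrm2, the ribonucleotide reductase subunit of S phase, was the 1 that fell, from 10.003, 9.66 and 9.56 to 8.35, 8.19 and 7.96 (adjusted p = 1.78e-06).

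In glycolysis and the pentose phosphate pathway 13 of 23 genes were higher and 3 lower. Ldha, which makes lactate, went from 11.99, 11.77 and 12.01 to 13.98, 13.95 and 13.82 (adjusted p = 5.6e-12). Slc16a1, which exports lactate, rose 5.61-fold, and Pfkp and Hk2, the early kinases of the pathway, rose 3.56-fold and 2.95-fold. The glucose transporter Slc2a3 fell 3.15-fold (adjusted p = 1.7e-08), and Slc2a1 differed by -0.45 ± 0.23 (adjusted p = 0.148). Pdk1, which holds pyruvate back from mitochondria, fell by 0.95 ± 0.16 (adjusted p = 3.71e-05). Of 12 genes in the list of amino acid transporters and Bcat1, 8 were higher and 1 lower (0 lower with median scaling or without the male-type arrays). Slc7a5, the carrier of large neutral amino acids, rose 6.56-fold and its partner Slc3a2 2.24-fold. Of the polyamine genes Srm rose 5.39-fold and Odc1 2.48-fold, with no call among the other 4 tested.

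The cell cycle genes were not yet raised as a group. Of 38 DNA replication genes 7 were higher and 12 lower, with a list median of -0.11 that became 0.05 with arrays scaled to their medians, where 8 were higher and 4 lower. Without the male-type arrays 6 were higher and 7 lower. Cdc6, which loads the replicative helicase, went from 8.01, 7.80 and 7.42 to 6.31, 5.66 and 5.67 (adjusted p = 0.000724), and Mcm4 fell by 0.65 ± 0.16. Pcna, the polymerase clamp, rose by 0.78 ± 0.10 (adjusted p = 1.36e-06) and Pold2 2.58-fold. At 16 h the median was 1.21 above 0 h, and 31 of the 38 were lower at 8 h than at 16 h (22 with median scaling). Cdc6 was at 8.91, 10.08 and 8.98 by then. Of 22 mitosis genes 11 were lower at 8 h than at 0 h and none higher, such as Mki67, a proliferation marker, from 10.62, 10.32 and 9.98 to 8.93, 9.18 and 8.80. With median scaling 6 of the 22 were lower.

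Regulators of the first growth phase shifted in opposite ways. Cdk4 and Cdk6, the kinases that start the cycle, rose 3.75-fold and 2.42-fold (adjusted p = 9.38e-11 and 1.61e-06). The inhibitors Cdkn2d and Cdkn1b fell 5.71-fold and 2.74-fold, whereas the inhibitor Cdkn1a rose 2.61-fold, from 6.95, 6.97 and 6.78 to 7.67, 8.08 and 9.10. E2f2 fell from 10.30, 10.16 and 9.61 to 7.60, 7.33 and 7.20. Ccnd2, the D cyclin of B cells, differed by 0.53 ± 0.21 (adjusted p = 0.0625) and was called lower at 8 h than at 16 h (adjusted p = 1.74e-05).

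**Figure D4:**
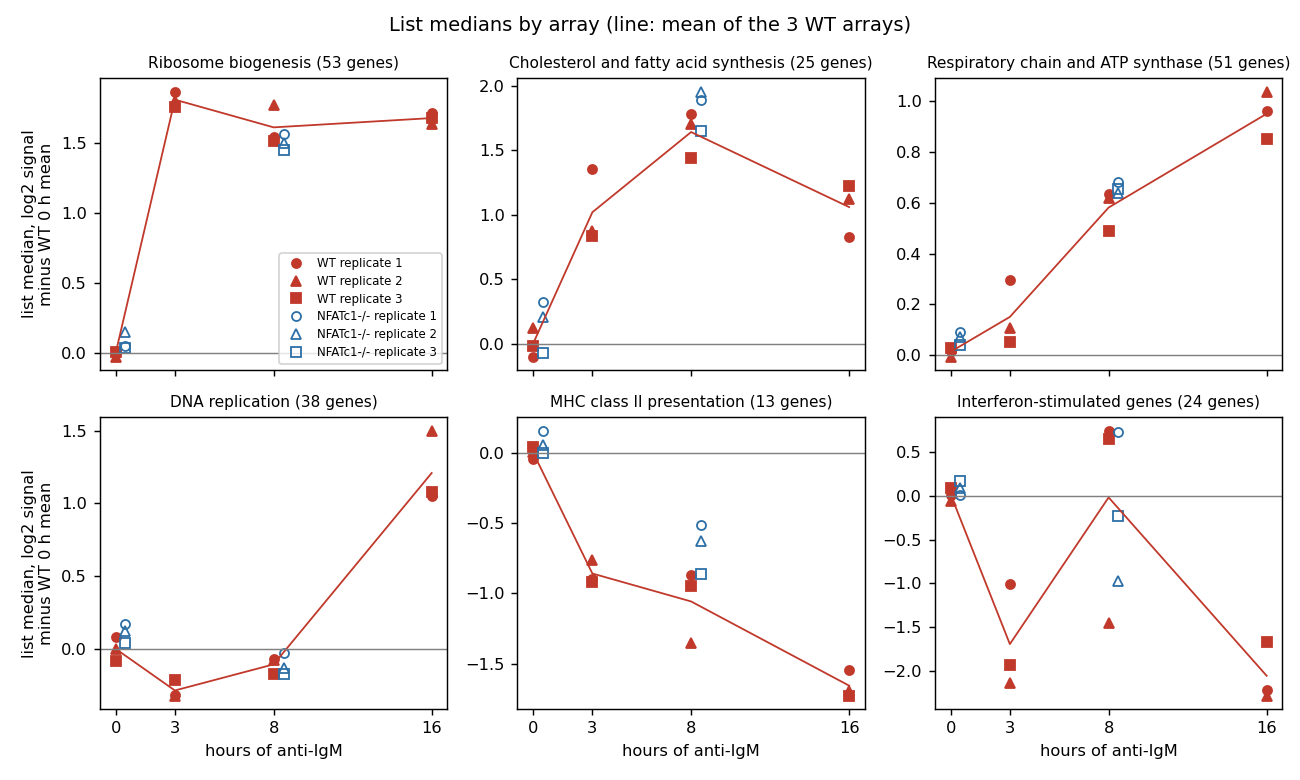
Median over each of 6 gene lists of the log2 signal minus the gene's WT 0h mean, for every array, against hours of anti-IgM, with WT filled and joined through the mean of 3 arrays and NFATc1-/- open at 0 and 8 h. The 3 markers stand for replicates 1, 2 and 3. The interferon list splits at 8 h, with WT replicates 1 and 3 at 0.74 and 0.65 and replicate 2 at -1.45.

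Several immediate early genes were far higher at 0 h than at 8 h. These genes need no new protein to be transcribed and usually peak soon after a stimulus. Of 23 tested, 10 were lower and 6 higher at 8 h. Fos was at 14.71, 14.73 and 14.52 at 0 h and at 8.55, 7.83 and 7.44 at 8 h, a 105-fold fall (adjusted p = 1.75e-11). Its partner Jun fell 41.2-fold, from 13.37, 13.39 and 13.01 to 8.15, 7.45 and 8.09, and Fosb at least 50.1-fold. The fall was already present at 3 h, where Fos averaged 8.84 and Jun 8.15. Dusp1, which switches off MAP kinases, fell 28.9-fold, Klf4, a transcription factor outside the list, 45.9-fold, and Zfp36, which destabilises cytokine messages, 5.91-fold.

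Other early genes were higher at 8 h. Nr4a3, an orphan nuclear receptor induced by antigen receptors, rose from 6.38, 6.16 and 7.25 to 11.23, 11.99 and 10.18, a 23.2-fold difference (adjusted p = 1.65e-08). Egr2, a zinc finger factor downstream of NFAT, went from 10.18, 10.10 and 9.59 to 12.72, 13.39 and 12.75, and its corepressor Nab2 rose 3.02-fold. Egr1 and Nr4a1 did not pass the test: Egr1 was at 12.46, 12.23 and 12.07 at 0 h and at 12.21, 12.45 and 12.35 at 8 h (adjusted p = 0.843), and Nr4a1 at 12.76, 12.92 and 12.88 and at 13.20, 13.26 and 12.29 (adjusted p = 0.943). Without the male-type arrays 9 of the list were lower and 4 higher.

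Of 13 heat shock chaperones 5 (38.5%) were higher and 3 (23.1%) lower at 8 h, against 17.7% and 15.7% of all genes. The list median was 0.27, and without the male-type arrays 3 were higher and 2 lower. The inducible Hspa1b was at 12.28, 14.39 and 13.50 at 0 h and at 7.09, 6.31 and 7.62 at 8 h (adjusted p = 2.49e-08). Hspa1a, a neighbouring gene of nearly the same sequence that the probes may not separate fully, was at 9.94, 12.79 and 11.06 and at 5.76, 5.80 and 5.77. Both varied by more than 2 log2 units among the 0 h replicates, with the male-type replicate 2 highest. Hspa4, a cytosolic chaperone, rose 2.10-fold, and Hspa8 differed by 0.27 ± 0.14 (adjusted p = 0.155). In the list of unfolded protein response and ATF4 targets 7 of 24 genes (29.2%) were higher and 4 (16.7%) lower, against 17.7% and 15.7% of all genes. Median scaling, and leaving out the male-type arrays, each left 2 lower. Ero1b and Dnajb9 fell 4.29-fold and 3.36-fold, and Chac1 was at least 2.43-fold higher (adjusted p = 0.000301).

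The parts of the B cell receptor pathway were mostly lower at 8 h. Of 21 tested genes 11 were lower and 2 higher. Syk, the kinase that docks to the receptor, went from 13.31, 13.28 and 13.02 to 10.45, 9.98 and 10.31, a 7.74-fold fall (adjusted p = 3.54e-12). The receptor's signalling chains fell too, Cd79b from 14.68, 14.73 and 14.78 to 13.34, 12.93 and 13.45 and Cd79a 4.13-fold, in a gene whose 0 h values spread from 12.47 to 14.27. The 2 that rose were Vav3, an exchange factor (2.89-fold), and the kinase Fyn (2.28-fold). Ighm, the heavy chain of IgM, fell by 0.75 ± 0.12 (adjusted p = 2.31e-05), with 2 of its 10 probe sets of the opposite sign.

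Coreceptors and inhibitory receptors were lower too. Of 14 tested 12 were lower and none higher, with a median of -1.90. Cd55, which protects from complement, went from 13.09, 13.25 and 13.13 to 10.05, 9.15 and 10.30, a difference of -3.32 ± 0.25 (adjusted p = 2.87e-10). Siglecg, an inhibitory lectin, fell 9.67-fold, Fcer2a (CD23), the low-affinity IgE receptor, 6.11-fold, Cd22 5.44-fold, and Cr2, the complement receptor that lowers the activation threshold, 3.90-fold. Fcgr2b, the inhibitory IgG receptor, fell 2.09-fold and had been lower still at 3 h (adjusted p = 0.00015 for 8 h against 3 h). Cd180 differed by -0.40 ± 0.24 (adjusted p = 0.226).

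Transcription factors that define the B lineage were lower in 10 of 16 cases and higher in 3. Ets1, which restrains plasma cell differentiation, fell 3.64-fold, Ebf1 2.83-fold and Pax5 2.66-fold, from 9.55, 9.76 and 9.35 to 8.02, 8.19 and 8.21. Tcf4, the E protein E2-2, rose by 0.94 ± 0.16 and Id3 by 0.64 ± 0.17. Bcl6, the germinal centre repressor, went from 11.57, 11.60 and 11.31 to 9.44, 9.06 and 9.80 (adjusted p = 3.29e-08), while Prdm1, which drives plasma cells, rose from 7.13, 6.999 and 7.30 to 8.76, 8.52 and 8.53 (adjusted p = 1.08e-05). Irf4 rose by 0.71 ± 0.24 (adjusted p = 0.024), and Batf differed by 0.45 ± 0.18 (adjusted p = 0.0568).

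Of 13 genes of antigen presentation on MHC class II 10 were lower and none higher, with a median of -0.87. Marchf1, the ubiquitin ligase that removes class II molecules from the surface, went from 12.10, 12.15 and 12.40 to 8.03, 7.35 and 8.27, a 20.1-fold fall (adjusted p = 9.42e-11). H2-DMa, which loads peptides, and H2-Oa, which inhibits loading, fell 4.82-fold and 5.10-fold, and the master regulator Ciita 3.56-fold. H2-Ab1 fell by 0.55 ± 0.19 (adjusted p = 0.0269), with overlapping arrays, while H2-Aa and the invariant chain Cd74 differed by -0.40 ± 0.21 and -0.31 ± 0.14 (adjusted p = 0.171 and 0.11). At 16 h the list was lower again, with 10 members called higher at 8 h than at 16 h. Dendritic cell markers, which belong to cells rich in class II, summed to 410 to 501 at 0 h and 409 to 621 at 8 h. The brighter macrophage and monocyte markers summed to 4548 to 11368 and 1788 to 4760. Whether cells other than B cells contributed to the class II differences was not tested.

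Receptors that guide B cells through lymphoid tissue were lower in 10 of 15 cases and higher in 2. Median scaling left 1 higher, and without the male-type arrays none was higher. S1pr1, needed to leave lymphoid organs, went from 11.77, 11.62 and 11.998 to 9.57, 9.24 and 9.55 (adjusted p = 2.18e-09). Itgb7, an integrin chain of gut homing, fell 10.8-fold, Cnr2, the cannabinoid receptor of B cells, 5.34-fold, and Cxcr5, the receptor for follicles, 2.34-fold. Ccr7 and Gpr183, which lead activated B cells to the T cell border, differed by -0.37 ± 0.29 and -0.51 ± 0.23 (adjusted p = 0.374 and 0.105). Of the regulators of G protein signalling, Rgs14 fell 6.03-fold and Rgs2 2.11-fold, and Rgs10 and Rgs16 rose.

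Quiescence genes fell in 14 of 17 cases, with a median of -1.54. Klf2, which keeps lymphocytes at rest and in circulation, went from 13.79, 14.05 and 13.78 to 10.78, 9.80 and 10.43, an 11.6-fold fall (adjusted p = 1.2e-10). Tsc22d3, also called GILZ, fell 16.1-fold, Txnip, which limits glucose uptake, 5.28-fold, and Foxo1 3.45-fold. Slfn2 was not called, at 0.39 ± 0.24 (adjusted p = 0.24). Klf2 was slightly higher at 8 h than at 3 h, where it averaged 9.60 (adjusted p = 0.0441).

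Activation markers and cytokine genes went both ways. Il2ra, the IL-2 receptor alpha chain, was at 4.95, 6.34 and 5.62 at 0 h and at 9.90, 10.02 and 9.44 at 8 h, at least 14.5-fold higher (adjusted p = 4.28e-09). Cd86, the costimulatory ligand for T cells, rose 4.29-fold and Tfrc, the transferrin receptor, 3.93-fold, whereas Cd69, an early activation marker, fell from 13.38, 13.66 and 12.98 to 12.11, 12.07 and 11.75 (adjusted p = 0.015). Slamf1 and Cd274 (PD-L1) fell 8.18-fold and 4.44-fold. Ltb, which organises lymphoid tissue, went from 14.00, 14.15 and 14.15 to 9.48, 9.15 and 9.78, a 24.7-fold fall with the smallest adjusted p among the named genes (3.87e-14), and its partner Lta was at least 11.4-fold lower. Ifng rose 3.27-fold (adjusted p = 0.0194). The NK markers Gzma and Klrd1 fell, in a list with 3 of 7 genes called lower and none higher. Whether the Ifng RNA came from NK cells was not tested. Of the chemokines Ccl4 and Cxcl10 rose 2.49-fold and 2.89-fold. Among 13 cytokine genes 2 were called higher and 3 lower. Without the male-type arrays no cytokine gene was higher and 3 were lower. That setting left 1 chemokine higher and 1 NK marker lower.

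Receptors for cytokines and BAFF were lower in 7 of 14 cases and higher in 2. Median scaling left 4 lower, and without the male-type arrays none was higher. Il4ra, the IL-4 receptor, went from 10.83, 10.84 and 10.86 to 9.04, 9.22 and 8.87 (adjusted p = 2.25e-10), and Il10ra fell 5.83-fold, while Il7r rose 2.79-fold. Socs3, a feedback inhibitor of cytokine signalling, fell 19.4-fold, from 10.71, 10.27 and 9.83 to 6.68, 6.09 and 5.21. Tlr1 fell 10.3-fold. Of 11 genes of Toll-like receptors and accessory proteins 6 (54.5%) were lower and 2 (18.2%) higher, against 15.7% and 17.7% of all genes. Median scaling and quantile normalization each left 4 lower. In NF-kB feedback, Nfkbie rose 2.35-fold and Bcl3 fell 3.87-fold.

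Survival genes of the BCL2 family also moved apart. Bcl2l11, which encodes the killer protein BIM, rose from 12.05, 11.50 and 11.52 to 13.92, 13.32 and 13.29 (adjusted p = 1.58e-07), and Bbc3 (PUMA) rose 2.47-fold. Of the protective members, Bcl2l1 (BCL-XL) rose 2.69-fold, while Bcl2 fell 2.80-fold and Mcl1 by 0.63 ± 0.12. Pmaip1 (NOXA), another killer protein, fell 2.89-fold (adjusted p = 0.00564).

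By measured difference, the remaining strongest decreases were Pglyrp2, Lifr, Fbxw13, Dnah8, Kbtbd11 (25.6-fold) and H1f2, a linker histone (23.7-fold). Pglyrp2 was at 8.48, 8.32 and 8.84 at 0 h and at 0.93, 1.07 and 1.26 at 8 h, at least 7.38-fold lower (adjusted p = 3.1e-06). Cyp27a1, which makes 27-hydroxycholesterol, an oxysterol that restrains sterol synthesis, was at 8.83, 8.89 and 8.75 at 0 h and at 2.51, 2.98 and 3.90 at 8 h, at least 8.94-fold lower (adjusted p = 7.94e-09). It led the 13 genes (0.0907%) that were lower at 8 h than at each of 0, 3 and 16 h. Arhgap15, which inactivates the GTPase Rac, went from 11.71, 11.53 and 11.78 to 8.98, 8.54 and 9.14 and averaged 11.15 at 3 h and 9.73 at 16 h. Blvrb, Cobll1, Anxa6, Cd82, Ap1m2, Sntb2 and Wfdc21 were among the others. Of the 13, 2 were called with arrays scaled to their medians (Ap1m2 and E2f7) and none without the male-type arrays. There were 8 calls without WT 3h replicate 2 and 8 without WT 16h replicate 2.

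Interferon-stimulated genes split between replicates at 8 h. These genes encode antiviral proteins and are switched on by type I interferon. As a mean over 3 arrays, 2 of 24 (8.33%) were higher and 5 (20.8%) lower at 8 h than at 0 h, with a median of -0.16. Among all genes the shares were 17.7% and 15.7%. The arrays disagreed: relative to the 0 h means the list median was 0.74 on WT 8h replicate 1, -1.45 on replicate 2 and 0.65 on replicate 3. On replicates 1 and 3 each, 18 of the 24 genes lay above their 0 h mean, and on replicate 2 this held for 2. Replicate 2 was the lowest of the 3 in 23 of 24 list genes, against 33.0% of all genes.

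Ifit3 shows the pattern in 1 gene. It was at 9.58, 9.30 and 9.82 at 0 h, and at 10.25, 8.08 and 10.38 at 8 h (adjusted p = 0.998). Rsad2, an enzyme that blocks viral replication, went from 9.19, 8.98 and 9.36 to 11.15, 9.17 and 10.71 (adjusted p = 0.0988). Irf7, which amplifies interferon production, went from 9.22, 8.98 and 9.31 to 9.93, 7.73 and 9.26 (adjusted p = 0.852). Replicate 2 is the male-type library of each WT group. In NFATc1-/- cells, whose 3 arrays at 8 h are all female-type, replicate 2 was again the lowest in 23 of 24 list genes (28.8% of all genes). The list medians were 0.73, -0.98 and -0.24 for replicates 1, 2 and 3. That replicate 2 array also stood apart over all probe sets, with a median of 6.83 against 6.31 and 6.37. Its 40th percentile was 6.23, against 5.52 on both others. What replicate number stands for was not tested, and neither was a part of sex type or array quality in the split.

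Against the neighbouring times the same list was high at 8 h. Its median was -1.88 at 3 h and -2.06 at 16 h relative to 0 h. Of 24 genes 12 were called higher at 8 h than at 3 h (10.3% of all genes) and none lower (5.57%). Against 16 h, 16 were higher (3.91%) and none lower (3.83%). Over the times 3, 8 and 16 h the mean of Oas2 was 5.99, 8.28 and 6.55 (adjusted p = 0.000179 for 8 h against 3 h and 0.0043 against 16 h). Without the male-type arrays the median against 0 h was 0.52, with 4 genes higher and 1 lower, and 15 and 17 genes were higher than at 3 h and at 16 h. With arrays scaled to their medians no list gene was called higher and 3 were called lower than at 0 h, and 5 and 12 were higher than at 3 h and at 16 h.

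Nfatc1, which encodes the factor deleted in the other genotype, was higher at 8 h in control cells. Its brightest probe set went from 11.79, 11.96 and 12.01 to 12.35, 12.29 and 12.71, a difference of 0.53 ± 0.13 (adjusted p = 0.00176). Of its 5 probe sets 2 more were called, at 0.90 ± 0.13 and 1.10 ± 0.18, and the others differed by 0.25 ± 0.16 and 0.13 ± 0.44. Rcan1, a calcineurin inhibitor that NFAT induces, rose 2.22-fold (adjusted p = 2.16e-05). The calcineurin subunit genes Ppp3ca and Ppp3cc fell 2.68-fold and 2.75-fold, and Nfatc2 fell by 0.74 ± 0.23 (adjusted p = 0.0156).

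NFATc1-/- cells, which share no array with the control groups, had over the same interval 2470 genes called higher (17.2%) and 2066 lower (14.4%). Of the 4784 genes called in control cells, 4725 (98.8%) had the same sign in NFATc1-/- cells, against 78.5% of all genes, and 3837 were also called in the same direction. None was called in the opposite direction. Idi1, for example, differed by 3.71 in control and 3.42 in NFATc1-/- cells, Fos by -6.71 and -6.27, and Syk by -2.95 and -2.91. List medians in control and NFATc1-/- cells were 1.70 and 1.70 for cholesterol and fatty acid synthesis and 1.62 and 1.45 for ribosome biogenesis. Other lists lay further apart, such as B cell coreceptors and inhibitory receptors at -1.90 and -1.37 and quiescence at -1.54 and -1.19. Regulators of G protein signalling differed in sign, at -0.48 and 0.15.

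**Figure D5:**
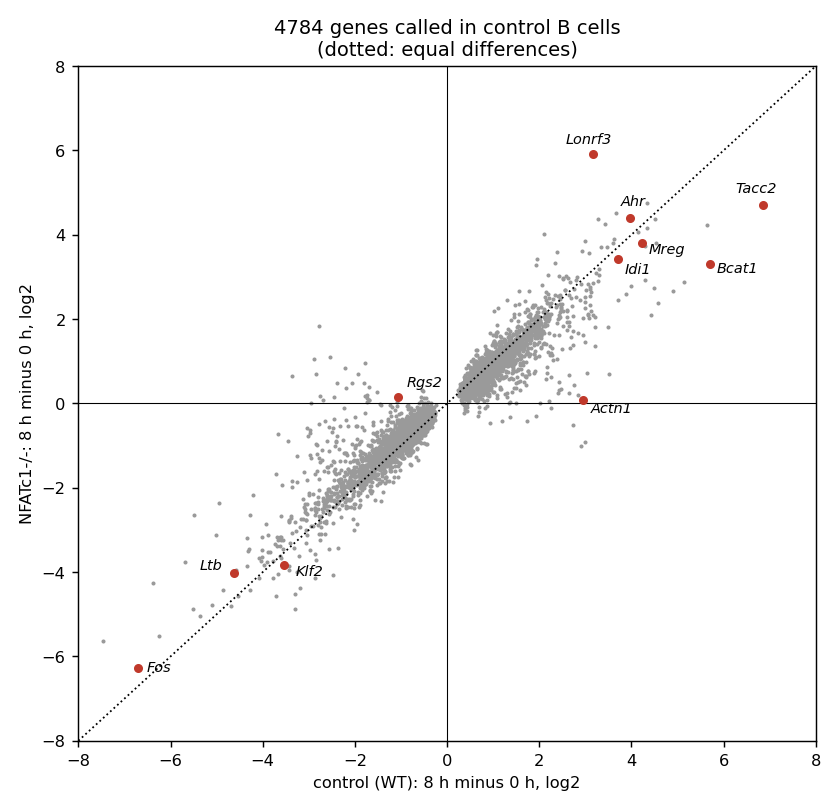
Difference 8 h minus 0 h in log2 units in NFATc1-/- cells (vertical) against control cells (horizontal) for the 4784 genes called in control cells, with 11 named genes in red and a dotted line of equal differences. Most points lie along the line, and Actn1 lies far from it, at 2.96 in control and 0.09 in NFATc1-/- cells.

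The difference between the genotypes in the 8 h minus 0 h change was called for 0 genes by limma, and 446 genes (3.11%) had an unadjusted p under 0.05. The smallest adjusted p was 0.619. With the replicate number as a fixed or a random block Actn1 was called, and without WT 0h replicate 2 Zbed5 was called, each as the 1 gene. Actn1, an actin crosslinker, went from 6.37, 7.37 and 6.40 to 9.96, 10.09 and 8.95 in control cells and from 6.39, 6.36 and 6.43 to 6.60, 6.71 and 6.14 in NFATc1-/- cells, and its change was smaller by 2.87 in the latter (unadjusted p = 4.32e-05). Rgs2 fell by 1.07 ± 0.20 in control cells and differed by 0.15 in NFATc1-/- cells (unadjusted p of the difference 0.0002). The next smallest unadjusted p were those of Bcat1, Tec, Lonrf3 and Tmem143, between 0.000307 and 0.000507. The 3 arrays per group limit what such a contrast of contrasts can detect.

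Where a called gene had several probe sets, they did not always point the same way. Of 2929 such genes, 521 had 1 or more probe sets of the opposite sign to the one used, and in 48 genes an opposite probe set was itself called. Among the genes described above, Nr4a3 (2 of 3 probe sets), Uqcrq (2 of 4), Nfatc2 (3 of 5), Gng4 (1 of 3), H1f2 (1 of 3), Il4ra (1 of 3), Fdft1 (1 of 4), Ccr9 (1 of 5) and Acly (1 of 5) had probe sets of opposite sign, none of them called.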

How the data were processed

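Total RNA of 24 B cell preparations, 3 biological replicates per genotype and time, was hybridised to Affymetrix mouse arrays with 45101 probe sets. The deposited values are log2 of MAS5 signals, per the submitters' processing notes, which give no version; every array has the same trimmed mean signal of 500.01. Of the probe sets 34945 had 1 gene symbol, 932 several and 9160 none listed, and 64 controls were left out. Probe sets above the 40th percentile of their array on at least 3 arrays were kept (33524), and the brightest per gene was used, which gave 14335 genes.

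Group means over all 24 arrays were fitted with limma 3.58.1 in R 4.3.3 (eBayes with trend, 16 residual degrees of freedom), with Benjamini-Hochberg adjustment over all genes and a call at an adjusted p under 0.05. The fit was tested on simulated data with 200 changed genes. The number of arrays limits the precision, and the median SE of the difference was 0.265 log2 units. Alternatives were other normalizations, filters, offsets, a 1.5-fold minimum, every probe set, a replicate block and leaving out each array. Leaving out the 4 male-type arrays was chosen after seeing the data.

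The members and gene lists were chosen with earlier results of these data known. The genes named are the 15 highest and 15 lowest non-overlapping called differences, the 8 highest and 8 lowest that stand apart from every other time, the 6 of smallest p in the genotype difference, every Nfatc1 probe set, and list members of large difference or textbook role. The 15 highest and 15 lowest were ranked on measured signals, before any raising to the filter level. Ahr, Cyp1a1, Tiparp and the other genes standing apart at 8 h were named after their values were seen. Promoter and miRNA sequences are from RefSeq.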

Additional observations from a re-analysis of the deposited data

How the results depend on the processing

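The counts of genes called higher (2538) and lower (2246) depended mainly on the scaling and on what was counted. With arrays scaled to their medians 1394 genes were lower; counting every probe set gave 4300 higher and 3928 lower, and testing against a 1.5-fold minimum 891 and 805. Leaving out 1 array gave 2217 to 2390 higher and 1898 to 2081 lower. The 17 genes highest at 8 h became 4 with median scaling, 0 with the 1.5-fold minimum, 8 without the male-type arrays and 5 to 28 with 1 array left out. The 13 genes lowest at 8 h became 2, 1, 2 and 8 to 18 under those settings, and 22 genes (23 probe sets) with every probe set. With the replicate number as a fixed block 35 genes were highest and 36 lowest at 8 h, and as a random block (correlation 0.208) 31 and 33; both blocks called 1 gene, Actn1, in the genotype difference, and leaving out 1 array called 0 to 1 (Zbed5). The blocks gave 2946 and 2877 higher and 2637 and 2606 lower genes. The numbers were not taken as pairs because the labels give no pairing. Deviations of same-numbered 0 h and 8 h arrays correlated at 0.0411, 0.102 and 0.0714, and those of different numbers at -0.0824 to 0.0158. Every array correlated best with its own number, and WT replicate 2 was male-type at every time. A shared source of same-numbered arrays was not tested. Signs turned for genes that were not called: Egr1 to -0.011 with quantile normalization and -0.00872 to 0.19 with 1 array left out; Nr4a1 to -0.036 with quantile normalization, -0.076 without the male-type arrays, and -0.11 to 0.37 with 1 array left out; Ifit3 to between -0.40 (without WT 8h replicate 3) and 0.75 (without WT 8h replicate 2) with 1 array left out; Irf7 to 0.33 without the male-type arrays, and to between -0.67 (without WT 8h replicate 1) and 0.43 (without WT 8h replicate 2); Tmem143 to 0.17 without the male-type arrays. The causes were not tested. Of 5086 retests of 283 genes, 4762 kept direction and call.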

Other observations

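Markers of B cell subsets moved in different directions at 8 h. Of 7 B1 cell markers 3 were called higher and none lower: Cd5, a brake on receptor signalling, rose from 6.46, 7.31 and 6.43 to 8.23, 9.15 and 8.04 (adjusted p = 0.000193), Plscr1 rose 3.39-fold and Zbtb32 1.96-fold. Of 6 marginal zone markers 3 were lower and 2 higher (1 higher without the male-type arrays). Cd36, a scavenger receptor, fell from 10.46, 10.46 and 11.09 to 7.85, 8.94 and 9.07 (adjusted p = 2.61e-06), whereas the tetraspanin Cd9 rose 4.10-fold. All these groups of arrays were separate. Whether cells or RNA per cell differ was not tested.

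Of 29 lysosome and autophagy genes 7 (24.1%) were higher and 8 (27.6%) lower, against 17.7% and 15.7% of all genes, and 5 were lower with median scaling. Tfeb, the factor that drives lysosomal genes, fell 2.55-fold (adjusted p = 6.71e-05) and Ctss, the protease that trims the invariant chain, 2.05-fold, while Gusb, a lysosomal glucuronidase, rose 2.06-fold (adjusted p = 2.46e-06). Acp5, an acid phosphatase, fell from 12.57, 12.15 and 12.11 to 7.78, 7.49 and 7.93 (adjusted p = 1.43e-11), and its arrays were far apart.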
